A study of Sus scrofa with 16 samples.

Results

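The genes described here encode translation factors and RNA-binding proteins of splicing. They are the rows of the count table whose names begin with EIF, EEF, DDX (each followed by a digit), HNRNP or HNRP, SRSF, SFRS or PABP, apart from the Y-linked *EIF1AY*: 40 of 3875 genes. Grouped mostly by name, 15 were counted as translation factors, 14 as splicing proteins (5 hnRNPs and 9 SR proteins) and 6 as DEAD-box RNA helicases. The 15 include *EEF1E1* and *EIF4A3*, whose products work elsewhere, as described below. The other 5 share only the name pattern: *EIF2C1* to *EIF2C4* encode Argonaute proteins of the microRNA pathway, and *PABPN1* encodes the nuclear poly(A)-binding protein. Of the names, 35 are current symbols, 3 are older symbols and 2 (*SFRS18*, *EIF2C3*) matched none in the symbol tables used.

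The cells were primary satellite cells (SCs), the stem cells of skeletal muscle, from the intercostal muscle of 3-day-old piglets: 4 animals with a deletion of exon 52 of the dystrophin gene (DMD) and 4 wild-type (WT) animals. SCs of each animal were sequenced after differentiation in medium with horse serum (DIFF) and during proliferation, at passage 6, in medium with fetal bovine serum and bFGF (PROL). DIFF lasted 10 days for the RNA samples, although the culture methods have 7 days. All SCs had been depleted of CD31+ and CD45+ cells and selected for ITGB1, NCAM1 and M-cadherin, and the study describes all piglets as male. The groups were thus DMD DIFF, WT DIFF, DMD PROL and WT PROL, with 4 animals each, and each animal gave a library to both states.

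Translation begins when initiation factors bring the small ribosomal subunit to the capped mRNA. The eIF4 factors bind and unwind the cap region, and eIF3 holds the subunit. The eIF4E-binding proteins (4E-BPs) repress this initiation when the kinase mTOR is inactive. Elongation factors then deliver aminoacyl-tRNA to the ribosome. Many mRNAs of the translation machinery, those of eEF1 and of ribosomal proteins among them, carry a 5′ oligopyrimidine tract and are controlled together by mTOR. hnRNPs and SR proteins bind nascent transcripts and steer the choice of splice sites, often with opposite effects, and their activity changes as myoblasts become myotubes.

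Library totals ran from 1110050 to 1781174 counts, of which 6.32% to 20.4% fell on *RN18S* (18S ribosomal RNA), with the highest share in DMD PROL replicate 4. The technical duplicates of this library also differed most, with a mean chi-square per gene of 52.05, against 1.32 to 8.21 in the other 15 libraries, and of 11.0 over the members, against 0.597 to 5.54. *EIF1AY* had 0 to 8 counts in both libraries of WT replicates 2 and 4 and 74 to 126 counts in the other 12 libraries, against the description of all animals as male. Counts of called members without these 2 animals are given beside the main ones. The satellite cell marker PAX7 is not analysed here. The myogenic marker *MYF5* had no count in any WT library but 40 counts over the DMD DIFF and 30 over the DMD PROL libraries, and the summed level of 4 myogenic markers was 1869 to 2251 CPM (read counts normalized with TMM factors) in DMD DIFF, 228 to 391.9 CPM in WT DIFF, 958 to 1442 CPM in DMD PROL and only 65.5 to 84.6 CPM in WT PROL. *DES* made up most of this sum. Its means were 2055 CPM in DMD DIFF, 271 CPM in WT DIFF, 1169 CPM in DMD PROL and 70.9 CPM in WT PROL. The sum of 5 fibroblast and matrix markers was 9471 to 12697 CPM in DMD DIFF, 21284 to 24337 CPM in WT DIFF, 4139 to 4575 CPM in DMD PROL and 8235 to 9997 CPM in WT PROL. In DIFF these markers did not all go the same way. *COL1A2* had a mean of 9100 CPM in DMD DIFF, above the 7909 CPM of WT DIFF. *COL3A1*, *DCN*, *POSTN* and *LUM* had lower means in DMD DIFF. Sums of 3 endothelial markers (27.4 to 49.0 CPM in DMD DIFF, 60.5 to 114 CPM in WT DIFF, 13.5 to 28.9 CPM in DMD PROL, 107 to 134 CPM in WT PROL) and 2 blood markers (means of 20.8 CPM in DMD DIFF, 55.4 CPM in WT DIFF, 33.4 CPM in DMD PROL and 54.8 CPM in WT PROL) were low, and the endothelial *VWF* had no count in PROL and 2 counts in each DIFF group. The SCs of the genotypes therefore differed in these markers in both states, and the part of the cell makeup in the results below was not tested. In such bulk libraries, fewer cells of a type and less RNA per cell cannot be told apart.

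The 40 members held 2.59% of all counts, and *EEF1A1* and *EEF1B2*, which encode the GTP-carrying subunit and a nucleotide exchange subunit of elongation factor eEF1, held 68.9% of the members' counts. The summed level of the 15 translation factors was 21040, 20116, 19353 and 21632 CPM in DMD DIFF, against 32466, 35501, 32510 and 27685 CPM in WT DIFF. It was 20041, 18673, 22540 and 20439 CPM in DMD PROL, against 16982, 18986, 20607 and 18112 CPM in WT PROL. All 4 WT DIFF libraries thus lay above the other 12. Without *EEF1A1* and *EEF1B2* the sum was 4647 ± 85.2 CPM in DMD DIFF (SD, n = 4), 4813 ± 155 CPM in WT DIFF, 4989 ± 121 CPM in DMD PROL and 5193 ± 274 CPM in WT PROL, so that the high sum of WT DIFF lay in these 2 genes.

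**Figure D1:**
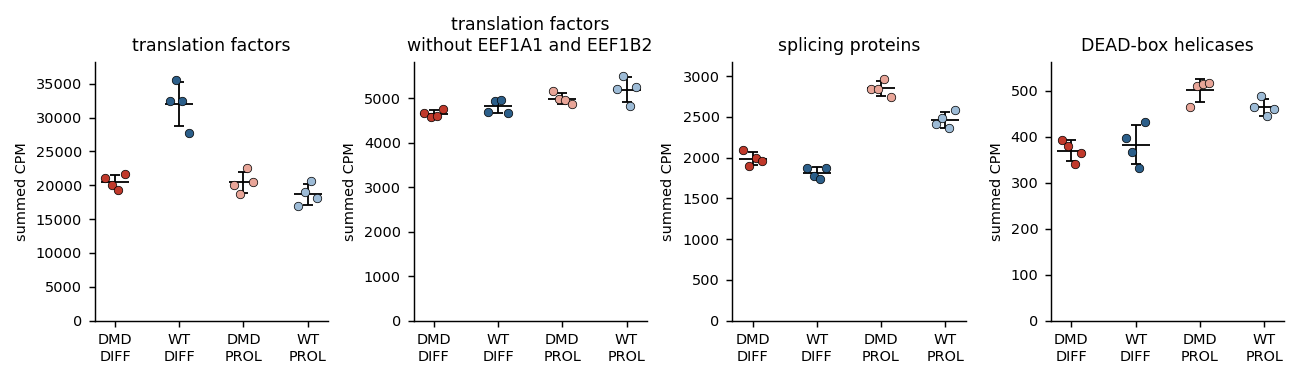
Summed CPM per library (points) of translation factors, of translation factors without *EEF1A1* and *EEF1B2*, of splicing proteins and of DEAD-box helicases in DMD DIFF, WT DIFF, DMD PROL and WT PROL; bars give the mean and SD of 4 animals. The translation factor sum is highest in the WT DIFF libraries, at 27685 to 35501 CPM, while splicing protein sums are lower in DIFF than in PROL in both genotypes.

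The sum of the 14 splicing proteins followed the state. It was 2098, 1904, 1995 and 1958 CPM in DMD DIFF, against 2849, 2844, 2965 and 2748 CPM in DMD PROL. In WT it was 1878, 1774, 1744 and 1877 CPM in DIFF, against 2414, 2482, 2366 and 2586 CPM in PROL. All 8 DIFF libraries lay below all 8 PROL libraries. In each state the 4 DMD libraries lay above the 4 WT libraries, but in PROL this rested on the TMM factors. Scaled by library totals alone, the sum was 3005, 3045, 3143 and 2516 CPM in DMD PROL, against 2756, 2834, 2628 and 3029 CPM in WT PROL, with DMD replicate 4 below every WT library. The total of DMD PROL replicate 4 held 20.4% of *RN18S* counts, against 6.32% to 9.49% in the other PROL libraries. These sums were not recomputed without *RN18S*. The hnRNP part of the sum was 1368 ± 57.8 CPM in DMD DIFF, 1232 ± 60.5 CPM in WT DIFF, 1941 ± 90.7 CPM in DMD PROL and 1682 ± 80.6 CPM in WT PROL (SD, n = 4 each). The sum of 4 cycling markers also followed the state, at 468 to 592 CPM in DMD DIFF, 474 to 543 CPM in WT DIFF, 1407 to 1569 CPM in DMD PROL and 1089 to 1396 CPM in WT PROL, and its part in the splicing protein levels was not tested. Of the 4, *MKI67* changed least, with means of 369 CPM in DMD DIFF and 405 CPM in DMD PROL. In WT its means were 352 CPM in DIFF and 424 CPM in PROL. The other markers, *CCNB1*, *CDK1* and *PCNA*, fell by more in both genotypes.

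Each gene was compared by the quasi-likelihood F test of edgeR. Calls required an absolute log2 fold change over 0.6 together with an adjusted *p* (Benjamini-Hochberg, over all tested genes) below 0.05. Between DMD and WT in DIFF, 9 of 34 tested members were called, 5 higher and 4 lower in DMD, where 33.6% of all genes were called (16.1% higher, 17.5% lower). All 3 genes with an elongation factor name were among them, with *EEF1A1* and *EEF1B2* lower and *EEF1E1* higher in DMD DIFF. Of the splicing proteins, *HNRNPAB* and *SRSF1* were higher. Between DMD and WT in PROL none of 37 tested members was called, where 18.2% of all genes were called. In PROL 11 members had an unadjusted *p* under 0.05, against 38.5% of all genes, 6 passed by adjusted *p* alone, against 26.9% of all genes, and DESeq2 called 1. Without WT replicates 2 and 4, there were 9 calls in DIFF, 5 higher and 4 lower, where 30.2% of all genes were called, and 1 in PROL, where 17.1% were.

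Between DIFF and PROL, 6 of 35 tested members were called in DMD, 1 higher and 5 lower in DIFF, where 28.4% of all genes were called (16.0% higher, 12.4% lower). By adjusted *p* alone 16 members passed in DMD, 2 higher and 14 lower, against 42.4% of all genes. In WT 12 of 36 tested members were called, 4 higher and 8 lower in DIFF, where 32.2% of all genes were called (17.9% higher, 14.3% lower). The interaction, which is the DMD over WT log2 fold change in DIFF minus that in PROL, was called for 8 of 37 tested members, 4 positive and 4 negative, where 23.4% of all genes were called (10.5% positive, 13.0% negative). With all animals, the members' share in each comparison was close to that of all genes or below it. Without WT replicates 2 and 4 there were 11 calls of 36 between the states in WT, where 22.9% of all genes were called, and 8 of 38 in the interaction, where 17.4% were. The DIFF genotype comparison, the WT state comparison and the interaction share the WT DIFF libraries, so that their calls are not separate evidence.

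The classes differed in their counts. Of 15 translation factors, 7 were called between genotypes in DIFF (3 higher and 4 lower in DMD), 1 between states in DMD (higher in DIFF), 9 between states in WT (4 higher, 5 lower) and 6 in the interaction. Of the splicing proteins, 2 of 13 tested were called between genotypes in DIFF (both higher in DMD), 5 of 13 between states in DMD and 3 of 14 between states in WT (all lower in DIFF), and 2 of 14 in the interaction. No helicase, Argonaute gene or *PABPN1* was called in any of these comparisons, although *DDX46*, *DDX58* and *DDX3X* were called under some of the alternatives. Over all genes 33.6% were called between genotypes in DIFF, 28.4% between states in DMD, 32.2% between states in WT and 23.4% in the interaction. In the same order, the shares were 46.7%, 6.67%, 60.0% and 40.0% of translation factors and 15.4%, 38.5%, 21.4% and 14.3% of tested splicing proteins. *EEF1E1*, a translation factor by name only, was among the calls between genotypes in DIFF, between states in WT and in the interaction. Whether the classes differ from each other or from all genes was not tested.

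The median log2 fold change of DIFF over PROL over the tested splicing proteins was −0.45 in DMD and −0.33 in WT, against 0.01 and 0.03 over all genes. Between genotypes in DIFF the median was −0.05 over translation factors and −0.02 over splicing proteins, against −0.03 over all genes.

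The balance of higher and lower calls depended on the scaling. With libraries scaled by their totals alone, in place of TMM factors, the median of all genes moved by 0.14 between genotypes in DIFF, by −0.15 between genotypes in PROL, by −0.35 between states in WT and by 0.28 in the interaction, on the log2 scale. The calls were then 5 higher and 1 lower between genotypes in DIFF, 1 higher and 15 lower between states in WT, and 8 positive and 2 negative in the interaction. The calls over all genes shifted in the same directions. They were 387 higher and 267 lower between genotypes in DIFF (308 and 335 with TMM factors), 194 higher and 564 lower between states in WT (343 and 275), and 387 positive and 134 negative in the interaction (213 and 263). The medians between genotypes in DIFF turned to 0.10 for translation factors and 0.11 for splicing proteins, and between genotypes in PROL the median over splicing proteins was 0.11 with TMM factors and −0.03 with totals. No called member changed its direction.

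**Figure D2:**
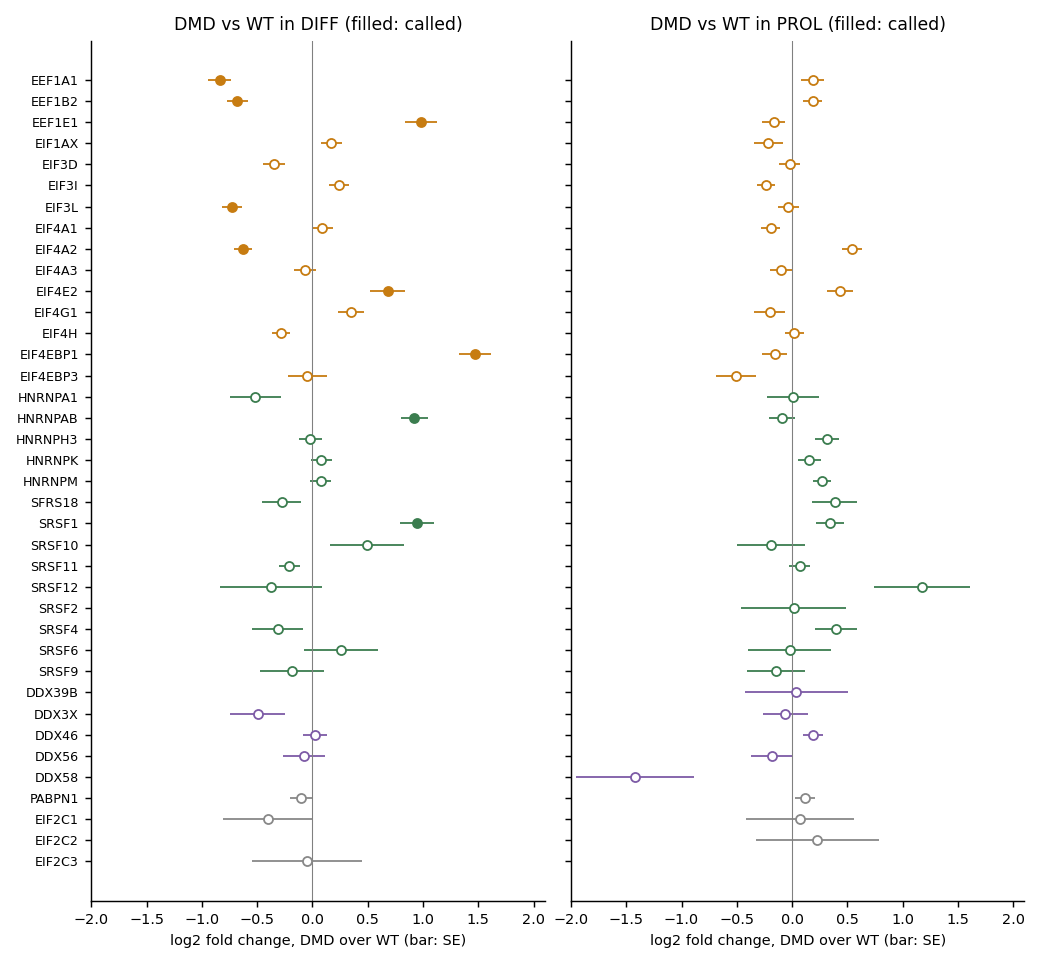
Log2 fold change of DMD over WT (points) with its SE (bars) for each tested member in DIFF and in PROL, in order of family; filled points were called. In DIFF 9 members were called, from *EEF1A1* at −0.84 to *EIF4EBP1* at 1.47, and in PROL none.

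*EEF1A1* encodes the factor that carries aminoacyl-tRNA to the ribosome. It stood at 10516, 9772, 9547 and 10751 CPM in DMD DIFF, against 18292, 20514, 18500 and 14966 CPM in WT DIFF. In PROL it stood at 8746, 8365, 11088 and 9762 CPM in DMD, against 7185, 8180, 9932 and 7855 CPM in WT. The WT DIFF libraries were above all others, and the PROL genotypes overlapped. Relative to WT, the log2 fold change of *EEF1A1* in DMD was −0.84 (SE 0.10, edgeR adjusted *p* = 4.2e-06) in DIFF and 0.19 (SE 0.11, adjusted *p* = 0.219) in PROL. That of DIFF over PROL was 0.09 (SE 0.09, edgeR adjusted *p* = 0.471) in DMD and 1.11 (SE 0.12, adjusted *p* = 2e-06) in WT, and the interaction was −1.03 (SE 0.15, adjusted *p* = 1.7e-05). *EEF1A1* has processed copies elsewhere in mammalian genomes, and how reads shared with such copies were counted is not given in the sources used here.

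*EEF1B2*, which encodes the exchange factor that recharges eEF1A with GTP, followed the same order. It stood at 5860, 5776, 5211 and 6122 CPM in DMD DIFF, against 9492, 10052, 9051 and 8043 CPM in WT DIFF. The ranges in PROL, 5337 to 6485 CPM in DMD and 4600 to 5846 CPM in WT, overlapped. Its log2 fold change of DMD over WT in DIFF was −0.68 (SE 0.10, edgeR adjusted *p* = 1.9e-05), that of DIFF over PROL was −0.06 (SE 0.08, adjusted *p* = 0.6) in DMD and 0.80 (SE 0.10, adjusted *p* = 9.8e-06) in WT, and the interaction was −0.87 (SE 0.13, adjusted *p* = 1.4e-05). Scaled by library totals alone, the values were −0.54 between genotypes in DIFF, 0.45 between states in WT and −0.59 in the interaction, all under the fold threshold, with adjusted *p* of 4.3e-05, 0.00046 and 0.00098 in edgeR.

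*EEF1E1* carries an elongation factor name, but its product (AIMP3) is a scaffold protein of the multi-tRNA synthetase complex. It moved the other way, with 203, 164, 176 and 172 CPM in DMD DIFF, against 107, 70.7, 99.6 and 81.7 CPM in WT DIFF. In PROL the libraries held 171 to 182 CPM in DMD and 185 to 214 CPM in WT, and the low values were thus those of WT DIFF. The log2 fold change of DMD over WT in DIFF was 0.98 (SE 0.14, edgeR adjusted *p* = 2.7e-05), that of DIFF over PROL was 0.01 (SE 0.11, adjusted *p* = 0.967) in DMD and −1.15 (SE 0.14, adjusted *p* = 8.9e-06) in WT, and the interaction was 1.15 (SE 0.17, adjusted *p* = 2.2e-05). Other genes of the synthetase complex were few: of 3 tested genes for synthetases and their scaffolds, *RARS* (arginyl-tRNA synthetase, log2 fold change 0.65, SE 0.09) and *AIMP2* (another scaffold protein, 0.86, SE 0.17) were also called higher in DMD DIFF, with edgeR adjusted *p* of 1.6e-05 and 0.00057. Of all genes 16.1% were called higher in DMD DIFF.

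**Figure D3:**
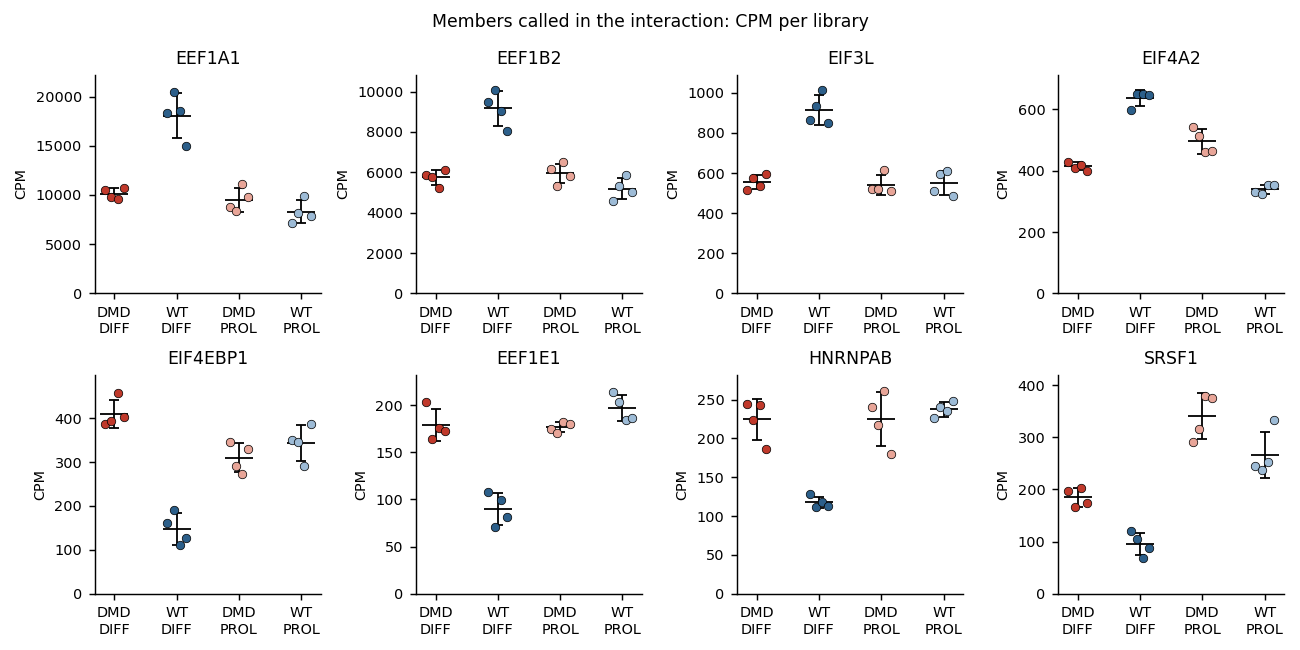
CPM per library (points) of the 8 members called in the interaction, in DMD DIFF, WT DIFF, DMD PROL and WT PROL, on linear axes from 0; bars give the mean and SD of 4 animals. For *EEF1A1*, *EEF1B2*, *EIF3L* and *EIF4A2* the WT DIFF libraries are the highest, and for *EIF4EBP1*, *EEF1E1*, *HNRNPAB* and *SRSF1* they are the lowest.

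The 3 counted subunits of eIF3, the complex that holds the small ribosomal subunit, did not all move together. Between genotypes in DIFF and between states in WT, *EIF3D* went the way of *EIF3L* but by less, and *EIF3I* went the other way. *EIF3L* stood at 518, 574, 536 and 595 CPM in DMD DIFF, against 867, 935, 1013 and 848 CPM in WT DIFF. Its PROL libraries held 509 to 616 CPM in DMD and 485 to 609 CPM in WT, so that WT DIFF alone stood apart. The log2 fold change of DMD over WT in DIFF was −0.73 (SE 0.09, edgeR adjusted *p* = 6.1e-06), that of DIFF over PROL was 0.03 (SE 0.09, adjusted *p* = 0.839) in DMD and 0.72 (SE 0.10, adjusted *p* = 2e-05) in WT, and the interaction was −0.70 (SE 0.13, adjusted *p* = 0.00024). Scaled by totals alone, the first and the last 2 of these were −0.59, 0.37 and −0.42, all under the fold threshold.

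*EIF3I*, another subunit, was at 511, 511, 497 and 583 CPM in DMD DIFF, against 416, 433, 458 and 461 CPM in WT DIFF, and at 531 to 625 CPM in DMD PROL, against 651 to 708 CPM in WT PROL. Its DIFF over PROL log2 fold change was −0.63 (SE 0.08, edgeR adjusted *p* = 1.3e-05) in WT, which was called, and −0.15 (SE 0.08, adjusted *p* = 0.166) in DMD. *EIF3D*, a subunit that can bind caps itself, was called nowhere. Its log2 fold changes of DMD over WT were −0.35 (SE 0.10, edgeR adjusted *p* = 0.00752) in DIFF and −0.02 (SE 0.10, adjusted *p* = 0.9) in PROL. That of DIFF over PROL was 0.32 (SE 0.09, edgeR adjusted *p* = 0.0118) in WT. The values in DIFF and in WT passed the adjusted *p* but not the fold threshold.

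Ratios of counts within a library do not depend on its scaling. The ratio of *EIF3L* to *EIF3I* was 1.01, 1.12, 1.08 and 1.02 in DMD DIFF, against 2.09, 2.16, 2.21 and 1.84 in WT DIFF. In PROL it was 0.833 to 1.06 in DMD and 0.685 to 0.924 in WT. These pairs of members were chosen after their values were seen, and the ratios are given without a test.

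The helicase subunit eIF4A, which unwinds the cap region, has the paralogs *EIF4A1* and *EIF4A2*. *EIF4A2* stood at 430, 410, 417 and 398 CPM in DMD DIFF, against 599, 651, 651 and 648 CPM in WT DIFF. In PROL the order was turned, with 544, 514, 462 and 463 CPM in DMD, against 330, 323, 352 and 352 CPM in WT, and the genotypes overlapped in neither state. The log2 fold change of DMD over WT was −0.63 (SE 0.08, edgeR adjusted *p* = 9.7e-06) in DIFF and 0.54 (SE 0.09, adjusted *p* = 0.00032) in PROL, the value in PROL being under the fold threshold. That of DIFF over PROL was −0.27 (SE 0.08, edgeR adjusted *p* = 0.0167) in DMD and 0.89 (SE 0.08, adjusted *p* = 5.1e-07) in WT. The interaction, −1.17 (SE 0.11, edgeR adjusted *p* = 4.3e-08), had the smallest *p* of all members. Scaled by totals alone, it was called as well, but the fold changes in DIFF (−0.49) and between states in WT (0.54) were under the threshold.

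*EIF4A1* was lower in DIFF than in PROL in both genotypes. It stood at 476 to 552 CPM in DMD DIFF, against 680 to 720 CPM in DMD PROL, and at 444 to 532 CPM in WT DIFF, against 718 to 927 CPM in WT PROL. Its log2 value of −0.74 (SE 0.10, edgeR adjusted *p* = 2.3e-05) in WT was called and that of −0.45 (SE 0.08, adjusted *p* = 0.00024) in DMD was under the fold threshold. The ratio of *EIF4A2* to *EIF4A1* within a library was 0.779, 0.863, 0.863 and 0.729 in DMD DIFF, against 1.32, 1.31, 1.22 and 1.46 in WT DIFF. It was 0.794, 0.714, 0.659 and 0.681 in DMD PROL, against 0.356, 0.409, 0.490 and 0.481 in WT PROL. The ratio thus spanned a narrow range over the 8 DMD libraries, and the WT libraries lay above it in DIFF and below it in PROL.

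**Figure D4:**
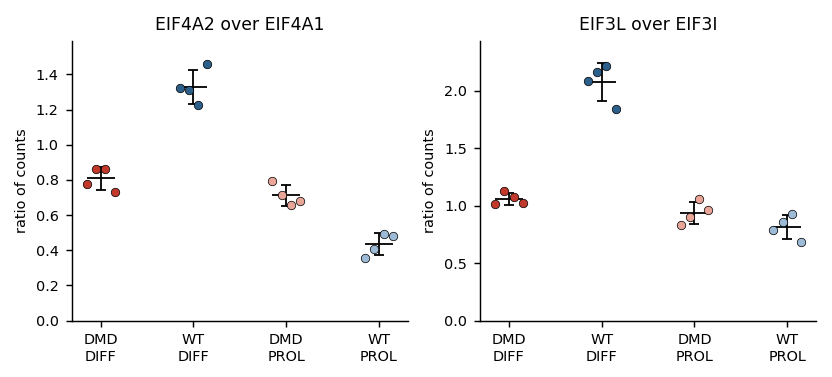
Ratio of counts of *EIF4A2* to *EIF4A1* and of *EIF3L* to *EIF3I* in each library (points), in DMD DIFF, WT DIFF, DMD PROL and WT PROL; bars give the mean and SD of 4 animals. Both ratios are highest in the WT DIFF libraries, at 1.22 to 1.46 and at 1.84 to 2.21.

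*EIF4E2* encodes 4EHP, a cap-binding protein that represses translation, and it was higher in DMD in both states. It stood at 125, 160, 131 and 176 CPM in DMD DIFF, against 106, 105, 78.9 and 78.9 CPM in WT DIFF, and at 176 to 212 CPM in DMD PROL, against 130 to 163 CPM in WT PROL. The log2 fold change of DMD over WT was 0.68 (SE 0.16, edgeR adjusted *p* = 0.00186) in DIFF, which was called, and 0.43 (SE 0.12, adjusted *p* = 0.0138) in PROL. Without DMD replicate 4 the value in DIFF was 0.59, under the threshold. The fold change of DIFF over PROL was −0.69 (SE 0.15, edgeR adjusted *p* = 0.00122) in WT, where it was −0.59 without WT replicate 4 and −0.55 (adjusted *p* = 0.095) without WT replicates 2 and 4.

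The scaffold *EIF4G1* and the eIF4A cofactor *EIF4H* passed the adjusted *p* but not the fold threshold between genotypes in DIFF, with log2 fold changes of 0.35 (SE 0.12) and −0.29 (SE 0.08). *EIF4A3*, an eIF4A-like helicase that works in the exon junction complex, had log2 fold changes of −0.23 to 0.03 over the 5 comparisons. *EIF1AX*, the X-linked partner of *EIF1AY* in start codon scanning, stood at 430 to 482 CPM in DMD DIFF, 357 to 449 CPM in WT DIFF, 415 to 528 CPM in DMD PROL and 449 to 668 CPM in WT PROL. Within WT its 2 highest libraries were those of replicates 2 and 4 in both states, the animals with few *EIF1AY* counts.

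The 2 counted 4E-BPs had different patterns. *EIF4EBP1*, which encodes a 4E-BP that mTOR phosphorylates, stood at 388, 394, 458 and 403 CPM in DMD DIFF, against 161, 191, 111 and 127 CPM in WT DIFF. In PROL it stood at 346, 291, 274 and 329 CPM in DMD, against 351, 345, 290 and 388 CPM in WT. The WT DIFF libraries were below the other 12. The log2 fold change of DMD over WT was 1.47 (SE 0.14, edgeR adjusted *p* = 5.1e-07) in DIFF, the largest of the called members, and −0.16 (SE 0.11, adjusted *p* = 0.327) in PROL. DIFF over PROL gave 0.40 (SE 0.10, edgeR adjusted *p* = 0.00374) in DMD, under the fold threshold, and −1.24 (SE 0.16, adjusted *p* = 1.6e-05) in WT. The interaction was 1.62 (SE 0.19, edgeR adjusted *p* = 9.1e-07).

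*EIF4EBP3*, which encodes a related repressor, stood at 221, 196, 227 and 171 CPM in DMD DIFF, against 118, 92.3, 126 and 122 CPM in DMD PROL. In WT its ranges overlapped, at 158 to 284 CPM in DIFF and 118 to 222 CPM in PROL. DIFF over PROL gave log2 fold changes of 0.82 (SE 0.13, edgeR adjusted *p* = 0.00011) in DMD and 0.35 (SE 0.24, adjusted *p* = 0.272) in WT, with an interaction of 0.46 (SE 0.28, adjusted *p* = 0.238), so that a difference between the genotypes was not shown with TMM factors. Scaled by totals alone, the interaction was called (0.75, edgeR adjusted *p* = 0.038), and with the animal as a block it was 0.47 (adjusted *p* = 0.038), under the fold threshold. In mammals the gene lies at the end of *ANKHD1* and shares read-through transcripts with it, and its counts are uncertain to that extent. Between genotypes in PROL it was lower in DMD by adjusted *p* alone, at −0.51 (SE 0.18, edgeR adjusted *p* = 0.0492), and it was called there without WT replicate 3 (−0.64) or scaled by totals alone (−0.66). Without WT replicate 2 it was −0.31 (edgeR adjusted *p* = 0.17).

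**Figure D5:**
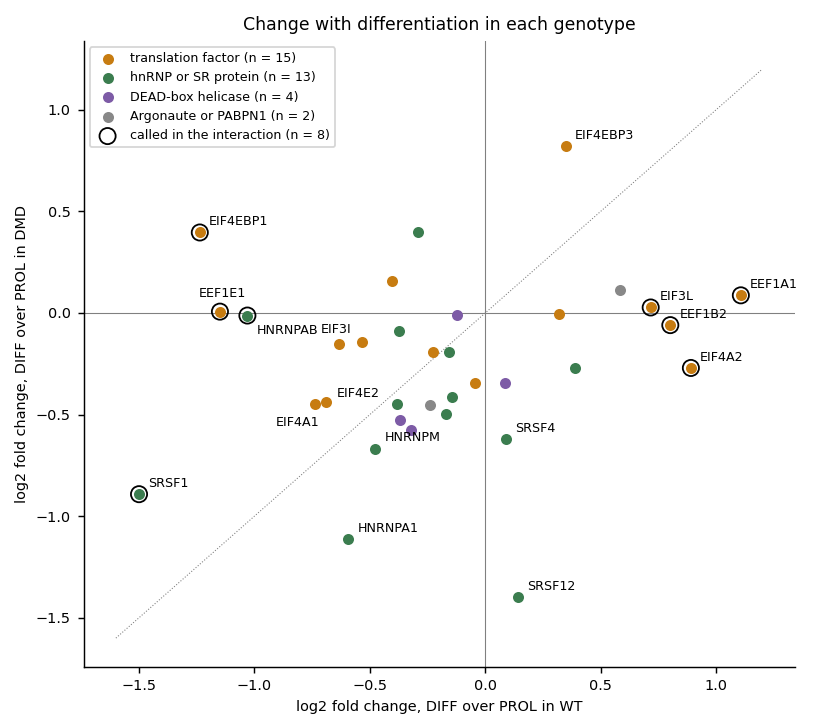
Log2 fold change of DIFF over PROL in DMD (vertical axis) and in WT (horizontal axis) for the members tested in both, colored by class; circles mark the 8 members called in the interaction, and the dotted line marks equal change. *EEF1A1*, *EEF1B2*, *EIF3L*, *EEF1E1* and *HNRNPAB* lie between −0.06 and 0.09 in DMD, while their values in WT run from −1.15 to 1.11.

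Among the hnRNPs, *HNRNPAB*, which encodes an A/B-type hnRNP, stood at 244, 224, 243 and 186 CPM in DMD DIFF, against 128, 112, 118 and 113 CPM in WT DIFF. In PROL it was at 180 to 261 CPM in DMD and 226 to 248 CPM in WT, so that WT DIFF was again apart. DMD over WT in DIFF gave a log2 value of 0.92 (SE 0.12, edgeR adjusted *p* = 8.4e-06), DIFF over PROL gave −0.01 (SE 0.13, adjusted *p* = 0.949) in DMD and −1.03 (SE 0.11, adjusted *p* = 2e-06) in WT, and the interaction was 1.01 (SE 0.16, adjusted *p* = 5.6e-05).

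The other 4 hnRNPs were called in no genotype comparison, and 2 of them were called lower in DIFF in DMD. *HNRNPM*, a splicing repressor, stood at 641, 488, 531 and 566 CPM in DMD DIFF, against 883, 939, 837 and 853 CPM in DMD PROL. It changed by −0.67 on the log2 scale (SE 0.09, edgeR adjusted *p* = 1.3e-05), and by −0.57 without DMD replicate 2. In WT it stood at 493 to 559 CPM in DIFF, against 655 to 780 CPM in PROL, and its log2 value of −0.48 (SE 0.09, edgeR adjusted *p* = 0.00034) was under the fold threshold. *HNRNPA1*, which encodes an hnRNP that often opposes SR proteins at splice sites, had 26.6, 43.1, 30.2 and 51.2 CPM in DMD DIFF, against 77.5, 102, 81.5 and 64.3 CPM in DMD PROL (log2 fold change −1.11, SE 0.22, edgeR adjusted *p* = 0.00054). In WT its change was −0.59 (SE 0.24, edgeR adjusted *p* = 0.0545). That value was called with DESeq2 (−0.62) and without WT replicate 4 (−0.75), and was −0.33 (edgeR adjusted *p* = 0.31) without WT replicate 2, and over all alternatives it ran from −0.94 to −0.33. *HNRNPA1* too has processed copies in mammalian genomes.

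*HNRNPK* and *HNRNPH3*, which encode hnRNPs binding C-rich and G-rich RNA, moved by less. DIFF over PROL gave −0.45 (SE 0.09) in DMD and −0.38 (SE 0.10) in WT for *HNRNPK*, and −0.50 (SE 0.11) and −0.17 (SE 0.10) for *HNRNPH3*. Of these 4 values, 3 passed the adjusted *p* and none the fold threshold.

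*SRSF1*, which encodes the SR protein known from promoting exon inclusion, was called in more comparisons than any other member. It stood at 196, 166, 203 and 174 CPM in DMD DIFF, against 120, 105, 68.6 and 88.5 CPM in WT DIFF. In PROL it stood at 290, 316, 378 and 375 CPM in DMD, against 244, 237, 252 and 332 CPM in WT. Every DIFF library was below every PROL library, and the genotypes overlapped in PROL only. DIFF over PROL gave −0.89 (SE 0.11, edgeR adjusted *p* = 6.9e-06) in DMD and −1.50 (SE 0.17, adjusted *p* = 4e-06) in WT on the log2 scale, and DMD over WT gave 0.95 (SE 0.16, adjusted *p* = 9.1e-05) in DIFF and 0.34 (SE 0.13, adjusted *p* = 0.0538) in PROL. The interaction of 0.60 (SE 0.21, edgeR adjusted *p* = 0.0317) lay at the threshold. It was not called without DMD replicate 1 (0.50), 2 (0.62) or 3 (0.61), without WT replicate 3 (0.49) or 4 (0.45), without WT replicates 2 and 4 (0.52), without *RN18S* (0.60) or with halved counts (0.59).

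Other SR protein genes had fewer counts. *SRSF2*, which encodes an SR protein found in nuclear speckles, had 0, 0, 10 and 8 counts in DMD DIFF, 0, 4, 2 and 2 counts in WT DIFF, 18, 6, 24 and 6 counts in DMD PROL and 14, 12, 16 and 8 counts in WT PROL. It was called lower in DIFF in WT (log2 fold change −2.51, SE 0.62, edgeR adjusted *p* = 0.00377), a size that rests on 8 counts against 50, and it was not tested in DMD after the filter on low counts. *SRSF12*, a less studied family member, had 9.80, 10.5, 5.76 and 5.69 CPM in DMD DIFF, against 35.7, 13.9, 16.3 and 18.4 CPM in DMD PROL. Its log2 value of −1.40 (SE 0.39, edgeR adjusted *p* = 0.00808) was −1.14 without DMD replicate 1, the highest library, with an adjusted *p* of 0.055.

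*SRSF4*, a longer SR protein, had 36.4, 44.3, 31.7 and 61.2 CPM in DMD DIFF, against 71.4, 49.3, 73.4 and 70.9 CPM in DMD PROL. The groups overlapped, and the called log2 value of −0.62 (SE 0.21, edgeR adjusted *p* = 0.0284) was −0.52 (adjusted *p* = 0.13) without DMD replicate 1 and −0.45 (adjusted *p* = 0.17) without DMD replicate 3. *SRSF11*, an SR-related gene and the one with the most counts in the family, changed by −0.42 (SE 0.10, edgeR adjusted *p* = 0.00316) in DMD and −0.14 (SE 0.09, adjusted *p* = 0.214) in WT between the states. *SRSF6*, *SRSF9*, *SRSF10* and *SFRS18* were called in no comparison. *SFRS18* was called higher in DMD PROL (0.76, edgeR adjusted *p* = 0.025) once WT replicates 2 and 4 were left out, against 0.39 (adjusted *p* = 0.179) with all libraries.

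Among the helicases, *DDX46*, which acts in early spliceosome assembly, stood at 258 to 290 CPM in DMD DIFF, against 354 to 422 CPM in DMD PROL (log2 fold change −0.53, SE 0.09, edgeR adjusted *p* = 0.00015). In WT it stood at 233 to 303 CPM in DIFF, against 320 to 370 CPM in PROL (−0.37, SE 0.11, edgeR adjusted *p* = 0.0124), and neither value passed the fold threshold. Scaled by totals alone, both were called, at −0.601 in DMD and −0.717 in WT (edgeR adjusted *p* of 0.0001 and 0.00011). Without DMD replicate 1 the value in DMD was called as well (−0.62, edgeR adjusted *p* = 0.00031). *DDX58*, which encodes the viral RNA sensor RIG-I and no splicing factor, had 2.46, 3.79, 8.15 and 1.31 CPM in DMD PROL, against 14.6, 11.2, 5.43 and 12.3 CPM in WT PROL. This log2 value of −1.42 (SE 0.53, edgeR adjusted *p* = 0.061) was not called, and it was called without DMD replicate 3 (−2.05) or WT replicate 3 (−1.66), whose values lie nearest to the other genotype, and its other leave-outs gave −1.40 to −1.14. DIFF over PROL in WT gave −1.26 (SE 0.61, edgeR adjusted *p* = 0.106), and −1.40 (adjusted *p* = 0.043) with the animal as a block, which was called. The germ cell helicase *DDX4* had 6 counts in all, in DMD PROL, and was not tested. The X-linked *DDX3X*, a helicase of translation initiation, had 34.4 and 45.3 CPM in WT DIFF replicates 1 and 3 and 64.8 and 74.8 CPM in replicates 2 and 4. It was called lower in DMD DIFF (−0.67, edgeR adjusted *p* = 0.031) without WT replicate 1, and not with all libraries (−0.50, adjusted *p* = 0.116). The value was −0.29 (edgeR adjusted *p* = 0.4) without WT replicate 4 and −0.05 (adjusted *p* = 0.92) without WT replicates 2 and 4.

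*PABPN1*, which controls poly(A) tail length in the nucleus, was at 315 to 400 CPM in DMD DIFF, against 470 to 519 CPM in DMD PROL (log2 fold change −0.45, SE 0.09, edgeR adjusted *p* = 0.00068). Its change in WT was −0.24 (SE 0.10, adjusted *p* = 0.0662). *EIF2C1* had the highest level of the Argonaute genes, with group means of 8.77 to 13.3 CPM, and the 4 Argonaute genes held 68 to 252 counts each over the 16 libraries. Of the 40 members, 33 were tested in every comparison, 5 in some, and *DDX4* and *EIF2C4* in none. In all, 17 members were called in at least 1 comparison.

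Genes of the same machinery outside the name pattern were counted for comparison. Of 6 tested spliceosome core genes, 3 were called lower in DIFF in DMD and 5 in WT, with medians of −0.65 and −0.74 against 0.01 and 0.03 over all genes. Their smallest adjusted *p* were those of *SNRPE* in DMD (−0.99, SE 0.08, edgeR adjusted *p* = 1.8e-08) and *SNRPD3* in WT (−0.97, SE 0.09, adjusted *p* = 7.7e-07), both Sm core proteins of the small nuclear ribonucleoproteins. Of 18 other splicing regulators, 1 was called higher and 6 lower in DIFF in DMD, and 1 higher and 4 lower in WT. Their medians were −0.41 in DMD and −0.28 in WT. Over all genes 16.0% were called higher and 12.4% lower in DIFF in DMD, and 17.9% higher and 14.3% lower in WT. Of the 4 tested genes of translation termination and control, *MKNK1*, a kinase of eIF4E, was called lower in DMD DIFF (−0.94, SE 0.22, edgeR adjusted *p* = 0.0021) and the others in no comparison. Of all genes 17.5% were called lower in DMD DIFF.

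Of 39 tested genes of cytosolic ribosomal proteins, a list added after the members' values were seen, none was called higher and 11 lower in DMD DIFF than in WT DIFF. Between DIFF and PROL none was called in DMD, and 11 were called higher and none lower in WT. In the interaction 1 was positive and 23 were negative, with a median of −0.67 against −0.04 over all genes. Over all genes 17.5% were called lower between genotypes in DIFF and 28.4% in either direction between states in DMD. Of all genes 17.9% were higher between states in WT, and 10.5% were positive and 13.0% negative in the interaction. Scaled by totals alone, 1 was higher and 9 were lower between genotypes in DIFF, 2 higher and 1 lower between states in WT, and 1 positive and 7 negative in the interaction. Side by side, the log2 fold changes in DMD and in WT between DIFF and PROL had medians of −0.15 and 0.53 for this list, and of 0.09 and 1.11 for *EEF1A1*.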

How the data were processed

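Libraries were 3′ mRNA-seq libraries with unique molecular identifiers, made from 25 ng of total RNA with 2 technical duplicates per sample. According to the study, reads were deduplicated with UMI-tools, aligned with STAR 2.7.10b to susScr3 and counted per gene; annotation and strand are not given in the sources used here. The authors deposited raw counts, without normalization. All 124000 values are even, for a reason not given, and the counts were used as they stand, duplicates added.

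Tests were the quasi-likelihood F tests of edgeR 4.0.16 under R 4.3.3 (TMM factors, robust fit), on genes that passed filterByExpr with a count of 10 in enough libraries and 15 in all. Genotype comparisons used the 8 libraries of a state, state comparisons the 8 of a genotype, and the interaction all 16. CPM use TMM factors over 16 libraries. The SE is the absolute log2 fold change divided by the square root of F, and restates the test. Tested on simulated data, the fits recovered 84.5% (genotype in PROL), 78.4% (genotype in DIFF), 76.3% (state in WT), 74.5% (state in DMD) and 56.6% (interaction) of genes changed by 1 on the log2 scale.

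Members and lists were chosen with earlier results of these data known. Described in full are members called in any comparison, the member with the highest mean CPM of each family, and a list of well-known factors where counted (*EEF2*, *EIF4E*, *EIF5A*, *PABPC1*, *SRSF3* and *DDX5* are not analysed here); others are given by range or added after their values were seen. Libraries of an animal share its number in the labels; their deviations from group means correlated by 0.0998 to 0.172. Alternatives were other size factors, DESeq2 1.42.0, no filter, all libraries in one fit, *RN18S* left out, halved counts, the adjusted *p* alone, an animal block and each animal left out. Leaving out WT replicates 2 and 4 together, and sums of members scaled by library totals alone, were chosen after seeing the data. No sequences or coordinates were used, since the gene tables at hand follow another genome build.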

Additional observations from a re-analysis of the deposited data

Results flagged for a closer look

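In 7 of 116 groups of 4 libraries a library lay far from the other 3, where 5.8 would be expected by chance at about 1 in 20. The gap to the nearest library, as a share of the whole range, was 0.833 for *EIF3I* in DMD DIFF (replicate 4), 0.941 for *EIF4A2* in WT DIFF (replicate 1), 0.895 for *EIF3L* (replicate 3) and 0.896 for *SRSF4* (replicate 2) in DMD PROL, and 0.842 for *SRSF1* in WT PROL (replicate 4). Of the summed levels, the hnRNPs stood at 0.878 in DMD PROL, where replicate 4 was lowest, and the helicases at 0.88 in DMD PROL, where replicate 1 was lowest.

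The genotype effect differed between DIFF and PROL, by the edgeR interaction, for 8 of 37 tested members, where 23.4% of all genes were called. The difference on the log2 scale was −1.17 for *EIF4A2*, −1.03 for *EEF1A1*, −0.87 for *EEF1B2* and −0.70 for *EIF3L*, and 1.62 for *EIF4EBP1*, 1.15 for *EEF1E1*, 1.01 for *HNRNPAB* and 0.60 for *SRSF1*. The call of *SRSF1* lay at the fold threshold and was lost under several alternatives.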

How the results depend on the processing

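The 35 calls of a member in a comparison were computed under 499 alternatives in all: 476 kept direction and call, 23 lost the call and none reversed. In 21 calls nothing was lost, and in 29 nothing but under scaling by library totals. The count between genotypes in PROL was 0, where 18.2% of all genes were called. It became 2 with library totals (*DDX58*, *EIF4EBP3*), against 20.2% of all genes, and 1 with DESeq2 and 1 without a filter (both *SRSF12*). It was 1 without WT replicates 2 and 4 (*SFRS18*), against 17.1% of all genes, and 6 by adjusted *p* alone, against 26.9%. With 1 animal left out it was 0 to 2. With 1 animal left out, counts were 9 to 10 between genotypes in DIFF, 5 to 6 between states in DMD, 12 to 13 in WT and 7 to 10 in the interaction. With all animals, the shares of all genes called were 33.6%, 28.4%, 32.2% and 23.4% in the same order. Such shares with an animal left out, with DESeq2, without a filter or with the animal as a block are not given here. By adjusted *p* alone, 16 members differed between states in DMD, against 42.4% of all genes. With the replicate block, counts were 6 in DMD, 13 in WT and 8 in the interaction, where all 26 calls of single members were kept and *DDX58* was added in WT. The causes of these changes were not tested.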
